A study of Mus musculus with 12 samples.

Results

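The steroid receptor RNA activator (SRA), its gene Sra1 and 9 genes for proteins that work with SRA or beside it on nuclear receptors were examined in adipocytes in which SRA had been raised or lowered. The 10 genes are Sra1, Slirp, Ddx5, Ddx17, Pus1, Spen, Ncoa1, Ncoa2, Ncoa3 and Nrip1. Their members on the array were all probe sets annotated to one of these symbols alone, 28 of the 45101 probe sets, and for each gene the probe set with the highest mean over the 12 arrays was taken as its leading probe set. Of the 28 probe sets, 22 varied enough across arrays to be tested (variance of the log2 values above 0.05), and these included the leading probe sets of 9 genes, all but that of Ddx17.

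SRA is unusual among nuclear receptor coregulators because it acts as an RNA, although its gene also gives rise to a protein. On binding a ligand, nuclear receptors such as PPARγ, which drives fat cell formation, exchange corepressors that close chromatin for coactivators that open it, and SRA is found in both kinds of complex, where RNA-binding proteins and helicases hold or remodel it. In adipose tissue the balance between p160 coactivators (Ncoa1, Ncoa2 and Ncoa3) and the corepressor Nrip1 is known to shape fat storage and energy use.

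Total RNA (5 µg per array) was hybridized to Affymetrix mouse genome arrays, with 3 arrays, labelled as biological replicates, in each of 4 groups. ST2 cells, a marrow-derived stromal line of mouse labelled strain BC8, carried a pMSCV retrovirus with a human SRA cDNA (ST2 SRA) or the empty pMSCV vector (ST2 control) and were taken on day 4 of differentiation. 3T3-L1 cells, a preadipocyte line labelled Swiss albino, carried a hairpin against SRA (shSRA) or a control hairpin that the labels call empty vector (shControl) and were taken on day 8. All groups received MDIT, a cocktail of 0.5 mM 3-isobutyl-1-methylxanthine, 1 µM dexamethasone, 0.167 µM insulin and 5 µM troglitazone. Each perturbation rests on a single construct in a single line of selected cells, and the values are levels per array after normalization, so that fewer cells of a type and less RNA per cell cannot be told apart.

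The deposited values are log2 signals, so a difference of 1 is a 2-fold difference. Adipocyte markers were bright in every group. The mean over the 8 markers found on the array lay between 13.02 and 14.16 on every array, against 5.22 to 5.41 for 5 endothelial markers and 5.87 to 6.35 for 7 macrophage and blood markers. For 4 muscle markers it was 6.65 to 7.22 and for 3 osteoblast markers 5.97 to 6.39. Single markers of these lists were brighter, such as Des of muscle, averaging 9.99 in shControl, and Cd68 of macrophages, averaging 8.63 in ST2 SRA. ST2 control replicate 2 stood apart from the other 2 arrays of its group, with a median deviation of -0.43 over 14314 bright probe sets, while the other 11 arrays deviated by -0.07 to 0.24. All 10 leading probe sets were lower on that array than on the mean of the other ST2 control arrays (median deviation -0.54), and each result in ST2 is therefore given with and without it where it matters.

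Sra1 itself was read by 1 probe set (1437423_a_at). In shSRA adipocytes its log2 signals were 9.46, 9.20 and 9.62 in replicates 1, 2 and 3, against 11.86, 11.67 and 11.84 in shControl adipocytes. No array of one group came near the other. The log2 fold change was -2.36 (SE 0.18, adjusted p = 5.58e-07 from limma), which left 19.5% of the shControl signal with a 95% interval of 15 to 25.2%. Sra1 is the target of the hairpin, so its call checks the knockdown and is no result about the members as a set. No other leading probe set of the 9 tested was called in the knockdown, where limma called 0.0734% of all tested probe sets.

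In ST2 adipocytes Sra1 was not called. With SRA overexpressed, Sra1 read 11.13, 11.13 and 11.44, against 11.14, 10.67 and 11.24 in ST2 control adipocytes, and the arrays of the groups overlapped. The log2 fold change was 0.22 (SE 0.18, adjusted p = 0.484 from limma), or 117% of the control signal with a 95% interval of 90.1 to 151%. Leaving out ST2 control replicate 2 took the log2 fold change to 0.05. The overexpressed cDNA is human and the probes were designed for mouse, and whether this probe set reads it was not tested. The paper reports strong overexpression of SRA RNA from this vector in ST2 cells, without showing the data. The value here is therefore not taken as a measure of how far SRA was raised. The probe set was not assigned to the coding or non-coding transcripts of the gene.

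Placed in order of mean, Sra1 was highest in shControl adipocytes (11.79 ± 0.11, SD, n = 3), next in ST2 SRA (11.23 ± 0.18), then in ST2 control (11.01 ± 0.30) and lowest in shSRA (9.43 ± 0.21). Of these neighbours, ST2 SRA and ST2 control overlapped and the other pairs did not. The log2 fold change with overexpression minus that with knockdown was 2.58 for Sra1 (SE 0.25, adjusted p = 2.38e-05 from limma for the difference itself). No other leading probe set of the 9 tested passed that test, which called 2.32% of all tested probe sets. The hairpin is aimed at Sra1, so its difference was set by the design and is no separate result.

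**Figure D1:**
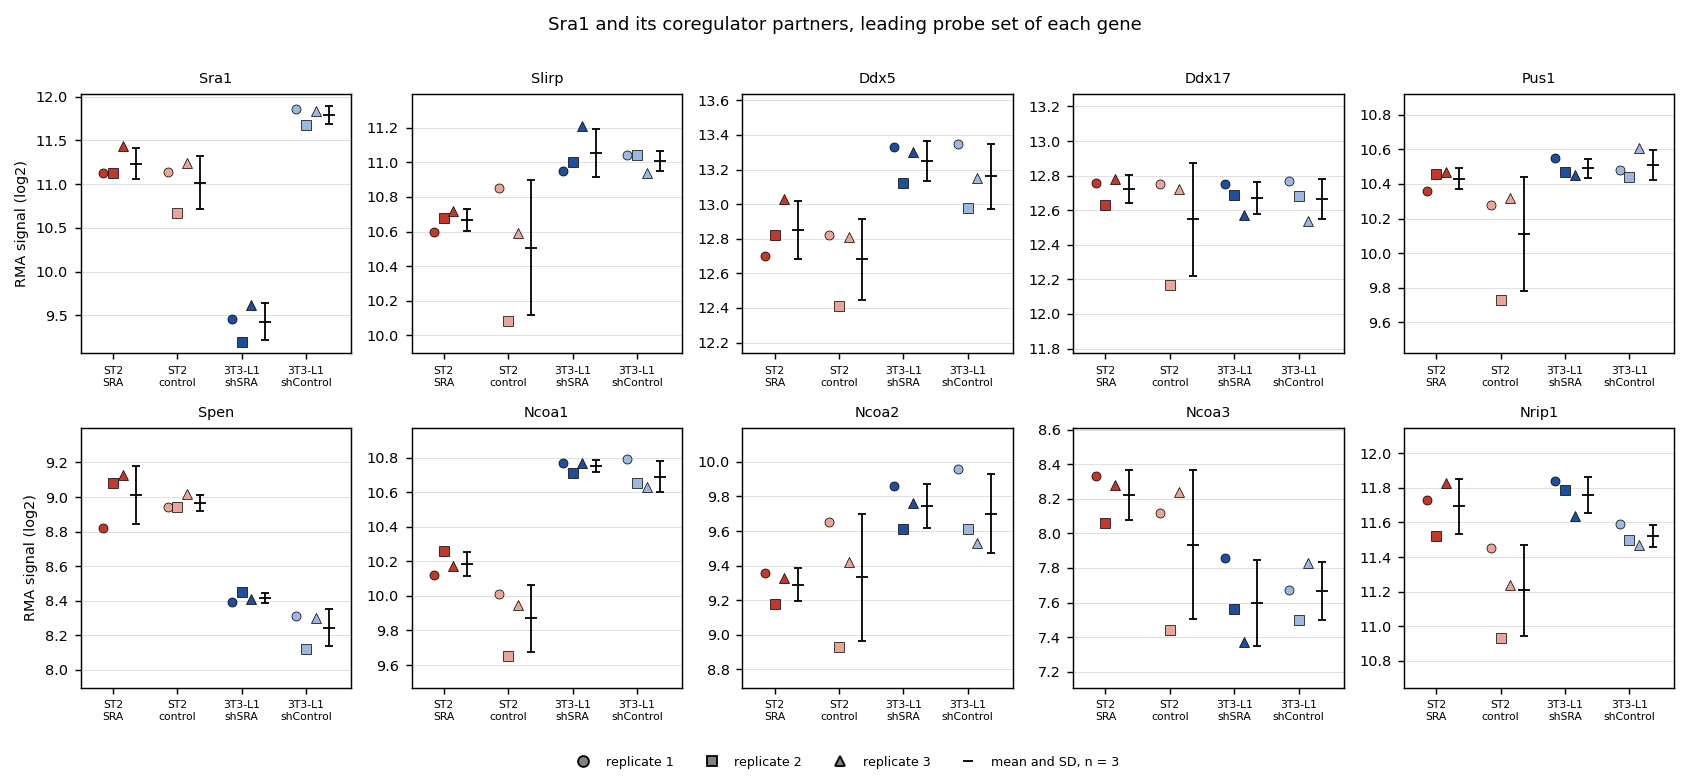
RMA signal (log2, vertical axis) of the leading probe set of each of the 10 genes on the 12 arrays, with the groups along the horizontal axis, 1 symbol per replicate and the mean with its SD beside them. Sra1 in shSRA lies at 9.20 to 9.62, far below shControl, while the squares of ST2 control replicate 2 lie below the other arrays of that group in nearly every panel.

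Among the RNA-binding partners of SRA, no leading probe set passed the test in either SRA comparison. Slirp, the protein that binds a stem-loop of SRA and also serves mitochondrial RNA, read 10.60, 10.68 and 10.72 in ST2 SRA adipocytes, against 10.85, 10.08 and 10.59 in ST2 control. In shSRA adipocytes it read 10.95, 11.00 and 11.21, against 11.04, 11.04 and 10.94 in shControl. The groups overlapped in both lines, with log2 fold changes of 0.16 (SE 0.18) and 0.04 (SE 0.18), and the ST2 value was -0.05 without ST2 control replicate 2.

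Ddx5 and Ddx17 encode related DEAD-box RNA helicases that bind SRA and act as coactivators. The leading probe set of Ddx5 (1419653_a_at) read 12.70, 12.82 and 13.03 in ST2 SRA, against 12.82, 12.41 and 12.81 in ST2 control. Its values were 13.33, 13.12 and 13.30 in shSRA, against 13.35, 12.98 and 13.15 in shControl. Both pairs of groups overlapped, and the log2 fold changes were 0.17 (SE 0.17), or 0.04 without ST2 control replicate 2, and 0.09 (SE 0.17). For Ddx17 the leading probe set (1452155_a_at) hardly varied over the 12 arrays (variance 0.0287), with 12.76, 12.63 and 12.78 in ST2 SRA, against 12.75, 12.17 and 12.72 in ST2 control. The shSRA arrays gave 12.75, 12.69 and 12.57, against 12.77, 12.68 and 12.54 in shControl. Since this probe set was below the variance minimum it was not tested, and its log2 fold changes were 0.18 in ST2, or -0.01 without ST2 control replicate 2, and 0.01 in 3T3-L1. Of the other Ddx17 probe sets, 1439037_at was the 1 tested, with log2 fold changes of 0.26 in ST2 (SE 0.19, adjusted p = 0.433 from limma), or 0.17 without ST2 control replicate 2, and -0.11 in 3T3-L1 (SE 0.19), and its groups overlapped in both lines. Probe set 1437773_x_at was below the variance minimum, at -0.04 in ST2, or -0.16 without that array, and 0.02 in 3T3-L1.

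The other 5 probe sets of Ddx5 were not called in either SRA comparison. In ST2, 1433810_x_at was 0.28 higher on the log2 scale with SRA without overlap but was not tested, 1438371_x_at and 1454793_x_at differed by 0.03 each, and 1423645_a_at by -0.07. Leaving out ST2 control replicate 2 made these 4 values 0.23, -0.04, -0.03 and -0.26. In 3T3-L1 the log2 fold changes of these 4 probe sets lay between 0.10 and 0.23. The last probe set, 1433809_at, read 11.99 on ST2 control replicate 2 and 8.23 to 8.97 on the other 11 arrays, so that its log2 fold change of -0.92 in ST2 (SE 0.54, adjusted p = 0.325 from limma) was set by that array and was 0.21 without it. The remaining probe sets of Ddx5 showed no such excess there.

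**Figure D2:**
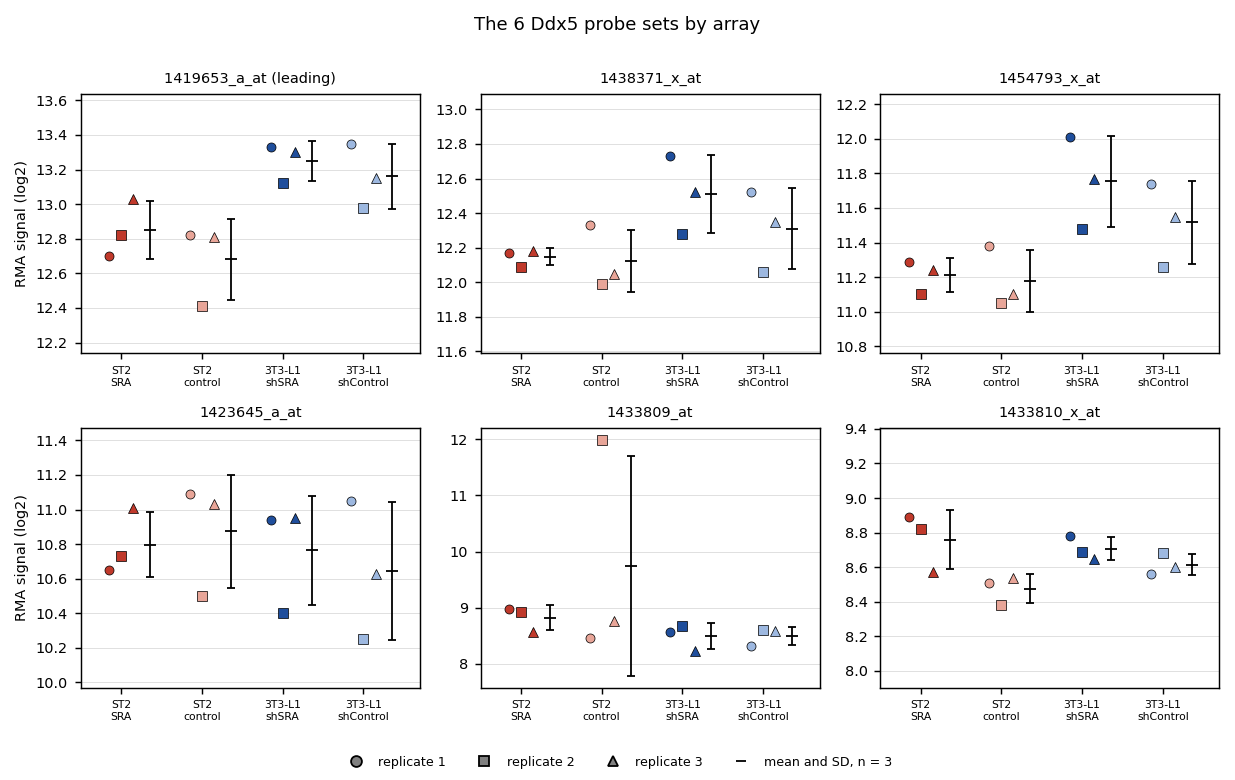
RMA signal (log2, vertical axis) of the 6 probe sets of Ddx5 in the 4 groups, 1 symbol per replicate, with the group mean and its SD. In the panel of 1433809_at a single square, ST2 control replicate 2, stands at 11.99 while the other 11 arrays lie at 8.23 to 8.97.

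Pus1, the pseudouridine synthase that modifies SRA, read 10.36, 10.46 and 10.47 in ST2 SRA, against 10.28, 9.73 and 10.32 in ST2 control. In 3T3-L1 it was flat, with 10.55, 10.47 and 10.45 in shSRA, against 10.48, 10.44 and 10.61 in shControl. The ST2 groups did not overlap, but the log2 fold change of 0.32 (SE 0.17) did not pass the test (adjusted p = 0.272 from limma) and was 0.13 without ST2 control replicate 2. Spen, a large SRA-binding corepressor that recruits histone deacetylases, read 8.82, 9.08 and 9.13 in ST2 SRA, against 8.94, 8.94 and 9.02 in ST2 control, which overlapped. Its 3T3-L1 groups did not overlap, with 8.39, 8.45 and 8.41 in shSRA, against 8.31, 8.12 and 8.30 in shControl. This was a small difference, 0.17 on the log2 scale (SE 0.15, unadjusted p = 0.256 and adjusted p = 1 from limma).

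Of the p160 coactivators, which bind ligand-bound receptors and bring in acetyltransferases, Ncoa1 had groups that did not overlap in ST2. Its leading probe set (1434515_at) read 10.12, 10.26 and 10.17 in ST2 SRA, against 10.01, 9.65 and 9.95 in ST2 control. Its other tested probe set (1418594_a_at) gave 9.72, 9.77 and 9.77 in ST2 SRA, against 9.63, 9.02 and 9.38 in ST2 control. Neither pair overlapped, and the log2 fold changes were 0.31 (SE 0.15, adjusted p = 0.236 from limma) and 0.41 (SE 0.16, adjusted p = 0.144 from limma). They were 0.20 and 0.25 without ST2 control replicate 2. The third Ncoa1 probe set, 1443397_at, was dim and not tested, at 0.01 in ST2 and -0.08 in 3T3-L1. In 3T3-L1 the leading probe set overlapped, at 10.77, 10.71 and 10.77 in shSRA, against 10.79, 10.65 and 10.63 in shControl.

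For Ncoa2 and Ncoa3, the other p160 genes, the arrays of the groups overlapped in both lines on the leading probe sets. The leading Ncoa2 probe set (1435233_at) read 9.36, 9.18 and 9.33 in ST2 SRA, against 9.65, 8.93 and 9.42 in ST2 control, a log2 fold change of -0.04 (SE 0.18). Without ST2 control replicate 2 it was -0.24, with no overlap and no call (adjusted p = 0.363 from limma). In 3T3-L1 it read 9.86, 9.61 and 9.76 in shSRA, against 9.96, 9.61 and 9.53 in shControl (0.04, SE 0.18). The dimmer probe set 1446827_at of the same gene had ST2 groups that did not overlap, with 7.41, 7.51 and 7.58 in ST2 SRA, against 7.40, 6.38 and 7.40 in ST2 control. Its log2 fold change of 0.44 (SE 0.22, adjusted p = 0.24 from limma) was 0.10 without ST2 control replicate 2, the array at 6.38, and in 3T3-L1 it was 0.07 with overlap. The groups of 1435234_at and 1450458_at overlapped in both lines, with log2 fold changes of 0.15 and 0.24 in ST2, or 0.00 and 0.11 without ST2 control replicate 2, and 0.01 and 0.10 in 3T3-L1. Ncoa3 (1422737_at) read 8.33, 8.06 and 8.28 in ST2 SRA, against 8.12, 7.44 and 8.24 in ST2 control, and 7.86, 7.56 and 7.37 in shSRA, against 7.67, 7.50 and 7.83 in shControl. Its log2 fold changes were 0.29 (SE 0.20) in ST2, or 0.04 without ST2 control replicate 2, and -0.07 (SE 0.20) in 3T3-L1. The other Ncoa3 probe set, 1448027_at, had a negative value in ST2, -0.10 (SE 0.18), or -0.24 without ST2 control replicate 2, and -0.11 (SE 0.18) in 3T3-L1, with overlap in both lines.

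Nrip1, a ligand-dependent corepressor that restrains energy expenditure in fat cells, had the largest log2 fold change of the leading probe sets in ST2. The window of 250 bases before its outermost annotated start (chr16:76373828-76374077, minus strand) is shown because it is the partner with probe sets past the test, and the capitals mark the 1 match to the receptor half-site GGGTCA.
Nrip1: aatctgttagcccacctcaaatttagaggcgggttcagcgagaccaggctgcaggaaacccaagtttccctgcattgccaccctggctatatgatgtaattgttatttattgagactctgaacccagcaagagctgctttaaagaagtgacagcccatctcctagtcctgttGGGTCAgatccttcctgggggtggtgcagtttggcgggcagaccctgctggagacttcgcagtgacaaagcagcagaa
Windows came from RefSeq annotation on GRCm38.p6, which held 7 of the 10 genes (Slirp, Ddx5, Ddx17, Pus1, Spen, Ncoa1 and Nrip1). The half-sites AGGTCA and GGGTCA, which do not overlap in any of the windows printed, were searched on both strands. AGGTCA was absent from this window and present in 14.0% of all 32851 windows of this length, and GGGTCA was present in 11.6%. The window has a GC content of 51.2%, close to the median of 52.4%, and a match is only a description of the letters. The window before another annotated start of Nrip1 (chr16:76373050-76373299), not printed, has a GC content of 73.6% and holds neither half-site.

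Read by array, the leading Nrip1 probe set (1449089_at) gave 11.73, 11.52 and 11.83 in ST2 SRA, against 11.45, 10.93 and 11.24 in ST2 control. Probe set 1418469_at gave 9.77, 9.61 and 9.93 in ST2 SRA, against 9.27, 8.79 and 9.27 in ST2 control. Probe set 1454295_at gave 9.75, 9.48 and 9.97 in ST2 SRA, against 8.95, 8.79 and 9.12 in ST2 control. On each of these every SRA array lay above every control array. The first had a log2 fold change of 0.49 (SE 0.16, adjusted p = 0.0763 from limma) and did not pass the test. The other two rose by 0.66 (SE 0.17, adjusted p = 0.0166) and 0.78 (SE 0.19, adjusted p = 0.0109, both from limma), the only member probe sets called in ST2.

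Another pair of Nrip1 probe sets, 1434384_at and 1447211_at, also had no overlap in ST2, with log2 fold changes of 0.49 (SE 0.17, adjusted p = 0.0922 from limma) and 0.51 (SE 0.19, adjusted p = 0.116 from limma). The sixth, 1432603_at, was dim and flat, with 7.03, 7.03 and 6.81 in ST2 SRA, against 6.85, 7.30 and 6.83 in ST2 control, and was not tested. Without ST2 control replicate 2 the log2 fold changes of Nrip1 were 0.35 for the leading probe set, 0.50 for 1418469_at (adjusted p = 0.0202 from limma) and 0.70 for 1454295_at (adjusted p = 0.0282 from limma). For 1434384_at and 1447211_at they were 0.32 and 0.23 without that array, again with no overlap and no call. The call of 1418469_at ended without ST2 SRA replicate 1 (adjusted p = 0.0613 from limma), and both calls ended without ST2 SRA replicate 3 (0.0947 for 1418469_at and 0.0717 for 1454295_at). The mean over 8 adipocyte markers was 13.59 to 13.64 on the ST2 SRA arrays, against 13.02 to 13.58 on the ST2 control arrays, with 0 of the 5 tested called by limma and 4 at an unadjusted p under 0.05. The median log2 fold change of the 8 was 0.37, or 0.18 without ST2 control replicate 2, when none of the 5 was called and 0 had an unadjusted p under 0.05 (limma). Their part in the result for Nrip1 was not tested.

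With SRA knocked down, no Nrip1 probe set was called. The leading probe set read 11.84, 11.79 and 11.64 in shSRA, against 11.59, 11.50 and 11.47 in shControl, again without overlap and again higher, by 0.24 on the log2 scale (SE 0.16, adjusted p = 1 from limma). The probe sets 1434384_at, 1418469_at and 1447211_at were likewise higher on every shSRA array than on any shControl array, by 0.27, 0.18 and 0.42 on average, although the closest arrays of 1418469_at both round to 9.84, and 1447211_at reached an unadjusted p of 0.0389 (limma). Probe set 1454295_at overlapped, at 9.86, 10.27 and 9.86 in shSRA, against 9.57, 9.95 and 10.12 in shControl. The difference between the ST2 and the 3T3-L1 effect was 0.25 for the leading probe set and 0.67 for 1454295_at (adjusted p = 0.764 and 0.289 from limma), and neither difference passed the test.

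**Figure D3:**
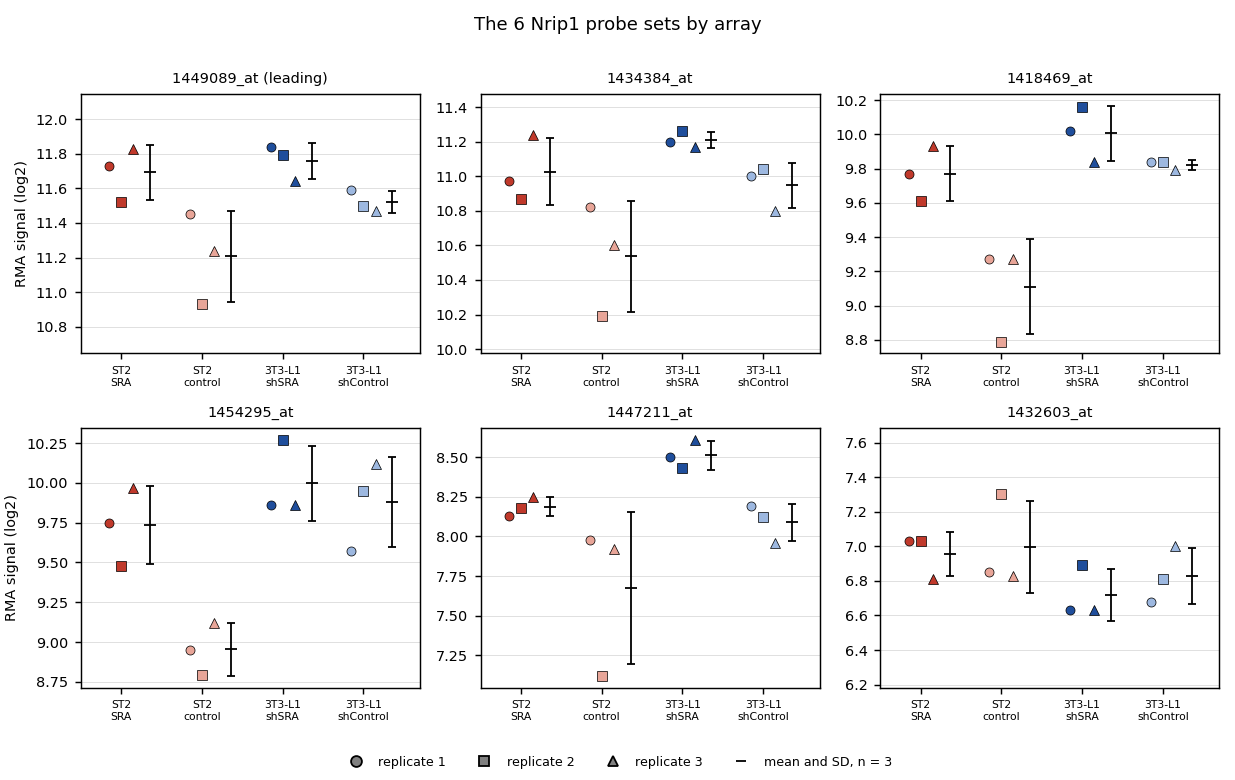
RMA signal (log2, vertical axis) of the 6 probe sets of Nrip1 in the 4 groups, 1 symbol per replicate, with the group mean and its SD. In 5 panels every ST2 SRA array lies above every ST2 control array, for example 9.48 to 9.97 against 8.79 to 9.12 on 1454295_at, and in 4 panels every shSRA array lies above every shControl array.

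Counted together, 0 of the 9 tested leading probe sets were called in ST2, where limma called 7.98% of all tested probe sets. At an unadjusted p under 0.05 there was 1, that of Nrip1, against 22.2% of all tested probe sets. The ST2 groups did not overlap for 3 of the 9 (Pus1, Ncoa1 and Nrip1, all higher with SRA), against 24.2% of all tested probe sets, and 8 of the 9 log2 fold changes were above 0. Their median was 0.22, against 0.07 over all tested probe sets. Without ST2 control replicate 2, 7 of the 9 were above 0 and the median was 0.04, against 0.00 over all tested probe sets. Again 0 were called, against 11.8% of all tested probe sets in that fit, and 1 had an unadjusted p under 0.05, against 23.7% (limma). The groups of 4 did not overlap (Pus1, Ncoa1 and Nrip1 higher, Ncoa2 lower), against 42.0% of all tested probe sets. With all arrays, 2 of the 22 tested probe sets of the members were called, 6 had an unadjusted p under 0.05 and 9 did not overlap. The shares for all tested probe sets are the 7.98%, 22.2% and 24.2% above. Probe sets of a gene read the same transcripts and are not separate evidence.

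In the knockdown, 1 of the 9 had an unadjusted p under 0.05 (Sra1), against 2.8% of all tested probe sets, and 3 did not overlap (Sra1 lower, Spen and Nrip1 higher), against 10.2%. As Sra1 is the target of the hairpin, its part in these counts was set by the design. The median log2 fold change was 0.04, against 0.02 over all tested probe sets. For the 9 partners without Sra1, fitted without the variance filter, the 95% intervals of the leading probe sets ran from -0.48 to 0.52 in 3T3-L1 and from -0.39 to 0.78 in ST2. Changes of leading partner signals beyond 0.719-fold or 1.44-fold in the knockdown, and beyond 0.762-fold or 1.71-fold with overexpression, therefore lay outside every interval of that fit. In the filtered fit the intervals were wider, from -0.49 (Ncoa3) to 0.58 (Nrip1) in 3T3-L1 and from -0.42 (Ncoa2) to 0.83 (Nrip1) in ST2. Each interval holds for 1 gene alone, and all arrays are included.

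**Figure D4:**
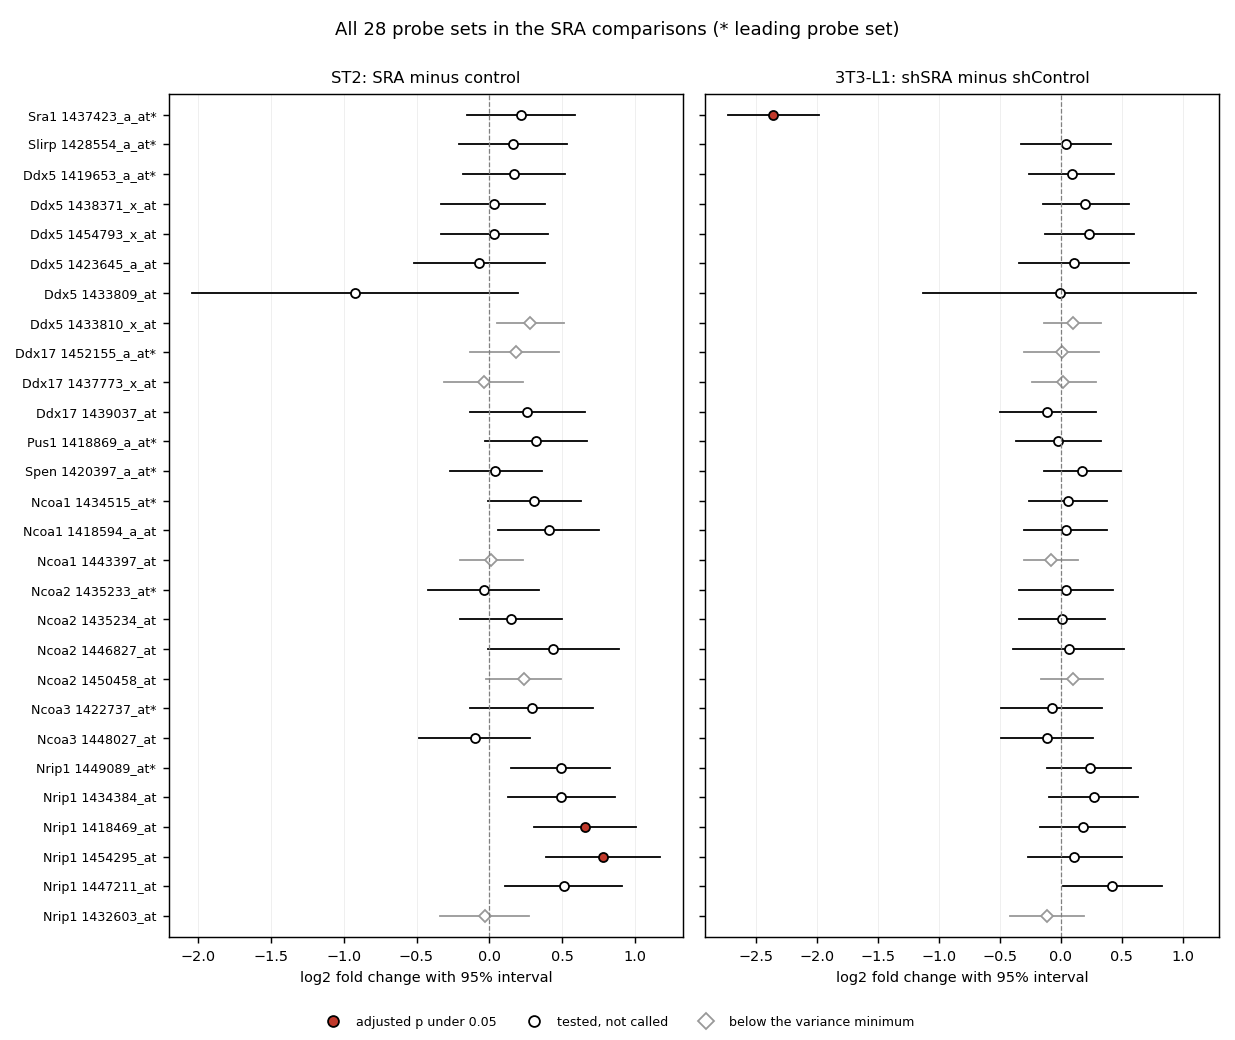
Log2 fold change (horizontal axis) with its 95% interval for all 28 probe sets, SRA minus control in ST2 on the left and shSRA minus shControl in 3T3-L1 on the right. Filled circles are called by limma, open circles are tested and not called, and diamonds are below the variance minimum and show the fit without that filter. In 3T3-L1 the call is Sra1 at -2.36, and in ST2 the calls are Nrip1 at 0.66 and 0.78.

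More members were called between the lines. In control adipocytes, 6 of the 9 tested leading probe sets differed between ST2 and 3T3-L1, 1 higher in ST2 and 5 lower, where limma called 63.6% of all tested probe sets. The arrays did not overlap for 7 of the 9, against 62.9%. Line, day of differentiation and vector cannot be told apart here, and a share this close to that of all tested probe sets says nothing particular about the members.

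Spen and Ncoa1 had the largest positive and negative differences of the 9, and the windows of 250 bases before their annotated starts are shown as the extremes of this comparison, Spen at chr4:141538598-141538847 and Ncoa1 at chr12:4477183-4477432, both on the minus strand of GRCm38.p6. Neither half-site occurs in them, so no capitals are used.
Spen: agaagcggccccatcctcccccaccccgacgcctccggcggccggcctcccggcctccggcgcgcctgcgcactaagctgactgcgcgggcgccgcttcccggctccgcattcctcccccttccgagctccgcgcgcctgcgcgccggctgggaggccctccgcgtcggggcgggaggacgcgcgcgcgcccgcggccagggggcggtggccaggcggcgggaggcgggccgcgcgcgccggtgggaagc
Ncoa1: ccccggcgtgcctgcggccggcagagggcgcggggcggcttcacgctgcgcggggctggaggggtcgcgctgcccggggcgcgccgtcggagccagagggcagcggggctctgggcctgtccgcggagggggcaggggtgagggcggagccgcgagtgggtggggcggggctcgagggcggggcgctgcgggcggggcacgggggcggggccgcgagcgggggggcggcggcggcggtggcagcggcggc
Both windows are rich in G and C (82.4% for Spen and 85.6% for Ncoa1). Spen read 8.94, 8.94 and 9.02 in ST2 control, against 8.31, 8.12 and 8.30 in shControl, a log2 difference of 0.72 (SE 0.15, adjusted p = 0.000399 from limma). Ncoa1 read 10.01, 9.65 and 9.95 in ST2 control, against 10.79, 10.65 and 10.63 in shControl, a log2 difference of -0.82 (SE 0.15, adjusted p = 0.000143 from limma). For both genes the arrays of the lines did not overlap, and the other tested probe set of Ncoa1 gave -0.79.

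Sra1 was lower in ST2 control than in shControl adipocytes, with a log2 difference of -0.78 (SE 0.18, adjusted p = 0.00106 from limma), or 58.4% of the shControl signal with a 95% interval of 45.1 to 75.6%. It remained so without ST2 control replicate 2 (-0.60, adjusted p = 0.00296 from limma). Slirp differed by -0.50, Ddx5 by -0.48 and Pus1 by -0.40 (adjusted p = 0.0194, 0.0187 and 0.0434 from limma). Of these, the calls for Slirp (-0.29) and Pus1 (-0.21) ended without ST2 control replicate 2, and Ncoa3, at 0.26 with all arrays (adjusted p = 0.238), passed without it (0.51, adjusted p = 0.0112, both from limma). The call for Pus1 also ended without any 1 of the 3T3-L1 arrays or of the ST2 SRA arrays, that for Ddx5 without shControl replicate 1 and that for Slirp without shControl replicate 2. The other tested probe sets of Ddx5 did not all go the same way. Those of 1438371_x_at (-0.19), 1454793_x_at (-0.34) and 1423645_a_at (0.22) were not called. Probe set 1433809_at was called at 1.25 (adjusted p = 0.0489 from limma), but without ST2 control replicate 2 it was 0.12 and not called. The Nrip1 probe sets 1418469_at and 1454295_at, which rose with SRA in ST2, were lower in ST2 control than in shControl, with log2 differences of -0.71 and -0.93 (adjusted p = 0.00128 and 0.000302 from limma). The ST2 control arrays enter both comparisons, so low values on them move both results, and this is no separate evidence. The leading Nrip1 probe set was not called between the lines (-0.32, adjusted p = 0.0961 from limma), nor was 1447211_at (-0.41). Probe set 1434384_at was called (-0.41, adjusted p = 0.047 from limma), but not without ST2 control replicate 2.

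**Figure D5:**
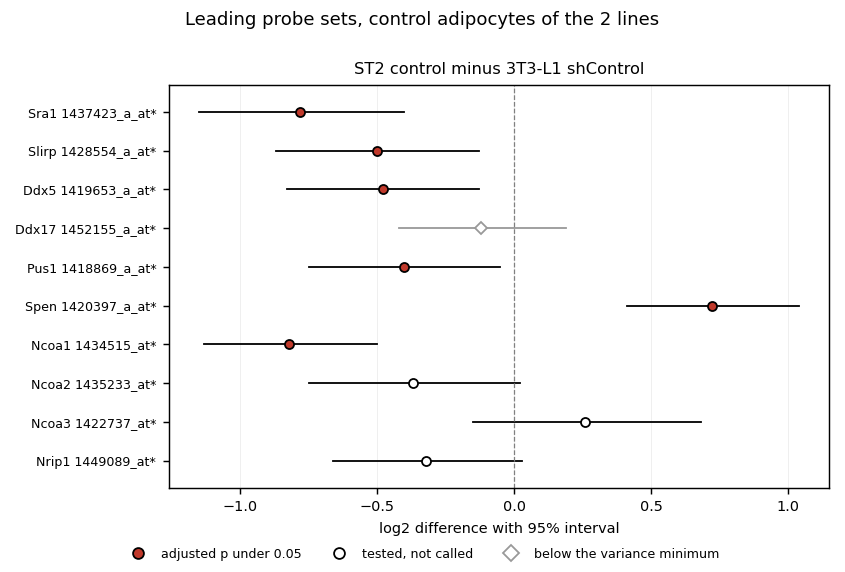
Log2 difference (horizontal axis) with its 95% interval for the leading probe set of each gene, ST2 control minus 3T3-L1 shControl, 3 arrays each. Filled circles are called by limma, open circles are tested and not called, and the diamond (Ddx17) is below the variance minimum. Spen lies right of 0 at 0.72, and Ncoa1 and Sra1 lie farthest left at -0.82 and -0.78.

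Of 44 further genes (coactivators, corepressors and RNA partners), 41 were on the array under their symbols and 25 of these were tested, while 16 were below the variance minimum. In ST2, 1 of the 25 was called higher and 0 lower, where 7.98% of all tested probe sets were called. With array weights 7 were called, but the share of all tested probe sets called with weights was not worked out. With all arrays weighted equally the 1 gene called was Tarbp2, the RNA-binding partner of Dicer. It read 9.61, 9.86 and 9.72 in ST2 SRA, against 9.39, 8.80 and 9.26 in ST2 control, without overlap (log2 fold change 0.58, SE 0.17, adjusted p = 0.0414 from limma). With 1 array left out, the call was kept without ST2 control replicate 1 or shControl replicate 1 and ended without any 1 of the other 10 arrays. Without ST2 control replicate 2 the log2 fold change was 0.41 (adjusted p = 0.0625 from limma), and Ncoa7, a coactivator gene, was called in its place. With all arrays Ncoa7 was lower with SRA in ST2, at -0.24, and not called (adjusted p = 0.448 from limma). In 3T3-L1, 0 of the 25 were called by limma and 0 had an unadjusted p under 0.05, where 0.0734% of all tested probe sets were called. Both counts are near what these shares give for 25 genes, so nothing particular to coregulators is read from them.

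By list, the median log2 fold change of the measured genes in ST2 was 0.05 for 16 coactivators, 0.10 for 14 corepressors and 0.11 for 11 RNA partners, against 0.06 over all probe sets. These medians were -0.12, -0.07 and -0.03 without ST2 control replicate 2, against 0.04. In 3T3-L1 the medians were 0.10, 0.05 and 0.02 in the same order, against -0.01. Between the lines, 5 of the 25 tested genes were higher and 13 lower in ST2 control than in shControl adipocytes, where 63.6% of all tested probe sets were called, so that these counts are a description and nothing particular to coregulators is read from them. Among coactivators Ppargc1a, the inducible coactivator of mitochondrial genes, differed most (-3.68, SE 0.25). It was followed by Kat2b, an acetyltransferase (-0.97), by Ppargc1b, the paralogue of Ppargc1a (0.78), and by Ncoa5 (0.61). The corepressors called were all lower in ST2 control, 6 of the 8 tested, led by Sin3b (-1.18), Lcor (-0.85), Tbl1xr1 (-0.82) and Kdm1a (-0.58). The RNA partners called were lower as well, 5 of the 8 tested, led by the insulator protein gene Ctcf (-0.71), Pus7 (-0.70), Prkra (-0.54) and Pus3 (-0.53), and each gene named here had an adjusted p of at most 0.0191 from limma. Without ST2 control replicate 2 the call of Prkra ended and those of the other genes named were kept.

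The genes whose signals followed Sra1 most closely over the 12 arrays, among 8189 candidates, were Rnf128 (Pearson r 0.84), Necap1 (0.81), Tspyl3, Gpsm1 and Wdr55 (0.78 each). The knockdown takes part in all of these values. Rnf128, a ubiquitin ligase gene, averaged 5.53 in shSRA and 7.15 in shControl (log2 fold change -1.62, adjusted p = 0.000235 from limma), and the other 4 had log2 fold changes of -0.45 to -0.37 in the knockdown that were not called. The genes most like Nrip1 were Mapk1ip1 (0.95), Prelp (0.92), U2af1l4, Chd1l and Plpp6 (0.91 each). In ST2 these 5 were higher with SRA by 0.53 to 0.83 on the log2 scale, 4 of them past the test, which called 7.98% of all tested probe sets. They were picked by their likeness to Nrip1 over these same arrays, so their rise is no separate evidence. All 12 arrays share 1 normalization, and ST2 control replicate 2 was low for many bright probe sets, so these values are a description.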

How the data were processed

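The authors deposited log2 expression values that they had made from Affymetrix mouse genome arrays by robust multi-array average (RMA), which corrects background, normalizes arrays to 1 distribution and summarizes each probe set. The submitters' processing notes name RMA, affy and limma. For these tools no version is given in the sources used here. Arrays were mapped to groups by their titles. Platform annotation gave 1 gene symbol for 34958 probe sets, several for 932 and none for 9211. Of those with 1 symbol, 34754 were found in RefSeq by Entrez ID, and no symbol needed an update. The number of unmapped columns was 0.

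From these values on, R 4.3.3 and limma 3.58.1 were used. Probe sets with a variance above 0.05 over all arrays were kept (19068 of 45101), following the filter in the study's methods, and a model of the 4 groups was fitted to all 12 arrays with lmFit and eBayes. Adjusted p-values are Benjamini-Hochberg values over all 19068, two-sided, called at 0.05. Beside the probe sets below the filter, values come from the same fit without the filter. The number of arrays, 3 per group, limits the precision. The labels call the replicates biological, and nothing more is said of separate cultures or infections.

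The 10 members and the lists of other coregulators and cell type markers were chosen with earlier results of these data known. All members are named with all their probe sets, up to 4 called genes of each other list per comparison, and the 5 genes most correlated with Sra1 and with Nrip1. Replicate numbers in the titles are shared between groups. In 3T3-L1, same-numbered arrays deviated together from their group means (correlations 0.59, 0.59 and 0.38), so the numbers were taken as pairs. This pairing enters only the fit with the replicate number as a block, and the main fit leaves it out. In ST2 the correlations were less even (0.04, 0.27 and 0.53), and the numbers were taken as names only. Alternatives were no variance filter, the replicate number as a block, a second quantile normalization, centring on bright probe sets, arrays of 1 line alone, array weights, an intensity trend, other choices of probe set, nested F classification and leaving out each array. After the data were seen, both rescalings and the fit without ST2 control replicate 2 were repeated on the 19068 probe sets, and the report gives values without that array from this fit, or without the filter for probe sets below it. The fitting code was tested on simulated data. Upstream windows were cut from RefSeq promoter sequences to the 250 bases before each start.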

Additional observations from a re-analysis of the deposited data

Results flagged for a closer look

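The effects of overexpression and knockdown on Sra1 differed by 2.58 log2 units (ST2 minus 3T3-L1, adjusted p = 2.38e-05 from limma for the difference itself). Sra1 was lower on 3 of 3 shSRA arrays than on any shControl array, and the ST2 groups overlapped. Sra1 is the target of the hairpin, and whether its probe set reads the human cDNA was not tested. The difference therefore repeats the knockdown and is no separate result.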

How the results depend on the processing

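The fall of Sra1 in the knockdown kept its direction and its call under every alternative run (log2 fold change -2.46 to -2.25 when 1 array was left out), and Sra1 stayed the 1 member called there. A replicate block, which pairs the 3T3-L1 arrays, changed no member call in 3T3-L1. In ST2 the same-numbered arrays correlated at 0.04, 0.27 and 0.53, and replicate 1 of ST2 SRA correlated better with control replicate 2, at 0.21. With the replicate block 1 member was called there (Nrip1, adjusted p = 0.023 from limma), against 0 without it, and 2 other coregulators, against 1.

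The count of members called in ST2, 0, was 2 with array weights (Ncoa1 and Nrip1, in a fit of the weights that stopped before its tolerance was reached) and 1 (Nrip1) with the intensity trend, with the probe set of highest variance, with the mean of each gene's probe sets and, chosen after seeing the data, with either rescaling on the probe sets of the original filter. It was 0 to 1 when 1 array was left out, with 1 without ST2 control replicate 1 (Nrip1, adjusted p = 0.0308 from limma). The ST2 call of Nrip1 1418469_at ended with the ST2 arrays alone (adjusted p = 0.07). Between the lines the count of 6 was 3 after a second quantile normalization and 3 after centring on bright probe sets, because 5 of the 9 then fell below the variance minimum. With the original filter it was 6 in both. It was 9 with array weights, 8 with the probe set of highest variance, 7 with the mean of probe sets, 7 with the replicate block (Ncoa2 added), which pairs arrays within a line and none across lines, and 4 to 8 when 1 array was left out. The 1 other coregulator called in ST2 was 7 with array weights, 2 with the intensity trend, 2 after centring with the original filter, 0 with the ST2 arrays alone, 0 by nested F and 0 to 2 when 1 array was left out. It was 0 without any 1 of 9 arrays (ST2 SRA replicates 1, 2 and 3, ST2 control replicate 3, shControl replicates 2 and 3, and shSRA replicates 1, 2 and 3) and 2 without ST2 control replicate 1. The 1 called without ST2 control replicate 2 was Ncoa7, which was at -0.24 with all arrays, not Tarbp2. Apart from the fit without ST2 control replicate 2 on the original filter, the share of all probe sets called was not worked out for the alternatives of this section. The counts from the other alternatives cannot be set against such a share.

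In ST2, Sra1 was -0.02 with array weights (0.05 to 0.33 without 1 array). Spen was -0.02 after quantile normalization, -0.03 after centring, the same with the original filter, -0.04 with array weights and -0.02 to 0.14 without 1 array. Ncoa2 was 0.44 and 0.20 with its most variable probe set and the mean of its probe sets, and -0.24 to 0.12 without 1 array. Slirp was -0.05 without ST2 control replicate 2. Ddx5 read by its most variable probe set was -0.92 in ST2, -0.01 in 3T3-L1 and 1.25 between the lines. In 3T3-L1, leaving out 1 array gave -0.04 to 0.17 for Ncoa2, -0.05 to 0.03 for Pus1, -0.21 to 0.04 for Ncoa3 and -0.04 to 0.09 for Slirp. Of 641 values for single members under alternatives, 582 kept direction and side of the threshold.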

Other observations

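ST2 control replicate 2, which stood apart over bright probe sets, also held isolated high values. On it 19 probe sets lay more than 2 log2 units above every other array, and on each of the other 11 arrays there were 0 such probe sets. They included Ddx5 1433809_at (gap 3.02 over the next array), Top3b 1438387_x_at (3.45) and Dnajc21 1420219_at (3.02).

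Wdr55, one of the genes most like Sra1 over the arrays, is the 8th protein-coding gene from Sra1 on chromosome 18. This was noticed after its values were seen. Of the 10 neighbours on each side, 18 of 20 were on the array and 7 passed the variance minimum. In the knockdown Wdr55 had a log2 fold change of -0.37 (SE 0.16, unadjusted p = 0.0296, adjusted p = 1 from limma). Of the 18, 5 were below 0, and none of the 7 was called by limma (1 at an unadjusted p under 0.05).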
